A study of Rattus norvegicus with 11 samples.

Results

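The genes described here drive and mark cell division: G1 cyclins and kinases, the cyclins and kinase of S and M phase, the spindle checkpoint, mitotic kinases and motors, the DNA replication machinery, and the inhibitors of the cyclin-dependent kinases. They were taken from a list of 36 gene symbols, as every probe set whose annotation gives exactly 1 of those symbols. 35 of the 36 were measured, on 53 probe sets, among 14217 genes and 31042 probe sets tested in all. Rrm2, a subunit of ribonucleotide reductase, is named only on probe sets that also name another gene, so no value is given for it. 12 of the genes had several probe sets, and values are those of the gene's brightest probe set, by mean over all arrays, unless another is named.

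Cells enter the cycle when cyclin D with Cdk4, and then cyclin E with Cdk2, phosphorylate the retinoblastoma protein and release E2F factors, which switch on the genes of DNA replication. Cyclin B with Cdk1 then drives mitosis, whose genes are switched on late, through a promoter element called CHR that the DREAM and MuvB-FOXM1 complexes bind. In the adult lung few cells divide, and in pulmonary hypertension the growth of smooth muscle and endothelial cells in the vessel wall is a recognised part of the disease.

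RNA came from perfused lungs of the Dahl salt-sensitive strain, in rats weighing 250 to 350 g, and the labels set 3 groups apart by what they received for 3.5 weeks. The first group breathed about 9.5% oxygen and was given SU5416, an inhibitor of vascular endothelial growth factor receptors (3 arrays). The next breathed the same hypoxic air with vehicle (4 arrays), and the last breathed room air with vehicle (normoxia, 4 arrays). Combined hypoxia and SU5416 is a model of severe pulmonary hypertension. The dose of SU5416 and the age of the rats are not given in the sources used here, nor whether 1 array stands for 1 animal, so p-values measure the spread between arrays.

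Values are log2 signals, 1 per probe set and array, and array medians lay between 7.802 and 8.005. The level taken as background, from 27 control probe sets for bacterial transcripts, was 5.72, and 18.8% of probe sets had a mean under it. The gap between 3′ and 5′ beta-actin probe sets, which widens with shortened RNA or labelling, was 2.24 in normoxia array 1 and 1.33 in normoxia array 2, while the remaining 9 had 0.51 to 0.87. Lung markers such as the surfactant genes Sftpc and Sftpb and the alveolar type I genes Ager and Aqp5 were bright on every array, at 11.47 to 13.89 log2 over 8 such genes.

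Set against normoxia, most cell cycle genes had a slightly higher mean in lungs of rats given hypoxia with SU5416. No gene was called by its own test, and the genes were not tested as a set. 29 of the 35 had a higher mean (82.9%), against 47.4% of all 14217 genes, and their median difference was 0.31 log2, against -0.02 for all genes. The differences were small, with quartiles of 0.05 and 0.42, and 4 of the 35 (Ccne1, Kif20a, Cdkn1a and Bub1b) passed a threshold of 1.4-fold together with an unadjusted p under 0.05, all higher, where 6.05% of all genes passed both in either direction. Bub1b counts there on signals under background in both groups, so no fold is given for it. None passed an adjusted p of 0.05 in limma (Benjamini-Hochberg over 31042 probe sets), where 0.0844% of all genes did. The smallest adjusted p by brightest probe set was 0.171, for Bub1b, and a dimmer Cdkn1b probe set had 0.144. At an unadjusted p under 0.05, 11 were higher and 1 was lower, where 6.02% of all genes were higher and 6.7% lower. In whole lung, a change in the number of dividing cells and a change in RNA per cell cannot be told apart.

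**Figure D1:**
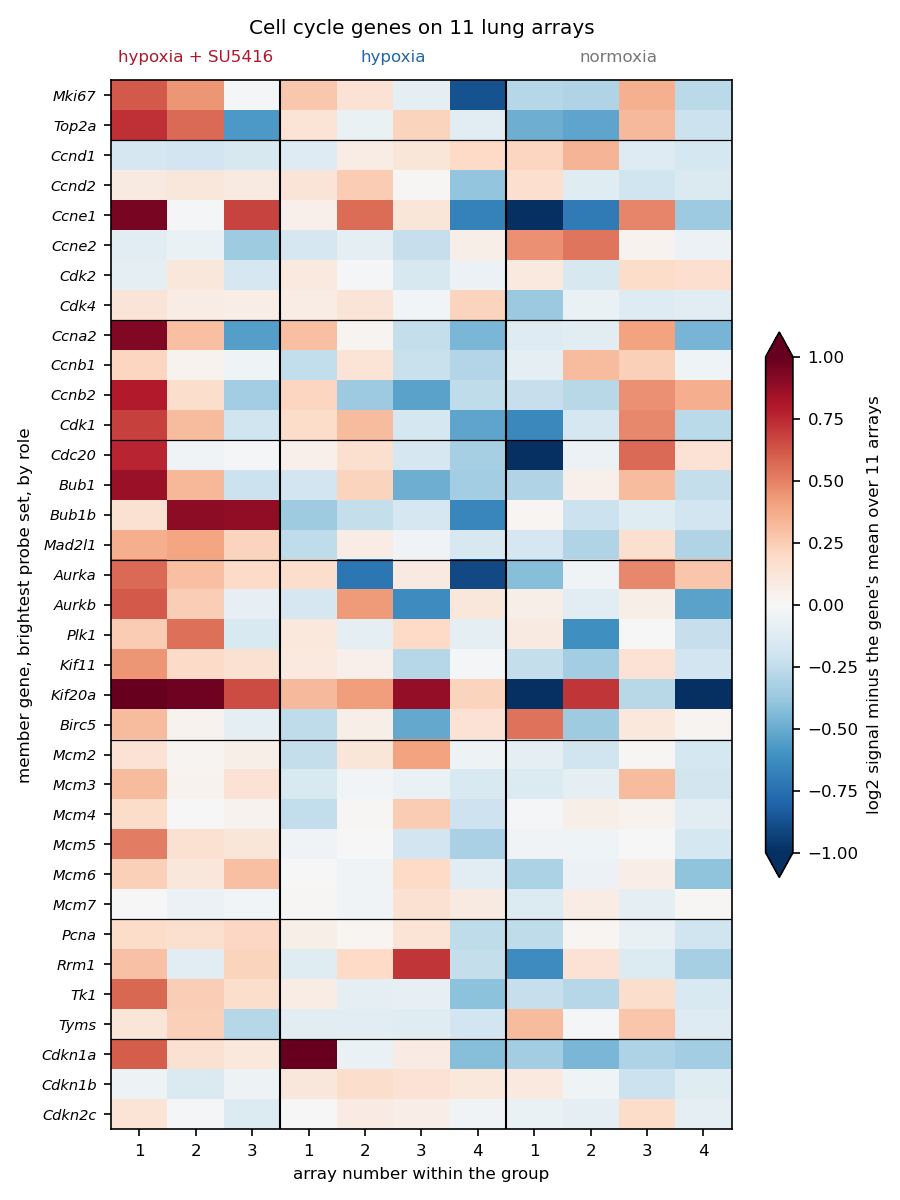
Heat map of the 35 cell cycle genes (rows, ordered by role, with lines between roles) on the 11 arrays (columns, by group), where colour is the log2 signal minus the gene's own mean over 11 arrays, cut at 1 in either direction. Array 1 of hypoxia with SU5416 is red for 31 of the 35 genes and the highest of all arrays for 14 of them, while normoxia array 3 is above the genes' own mean for 25.

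The arrays of the 2 groups did not overlap for 11 genes in that comparison. Mad2l1, Bub1b, Kif11, Mcm2, Mcm5, Mcm6, Pcna, Tk1, Cdk4 and Cdkn1a lay higher on all 3 arrays of hypoxia with SU5416 than on any normoxia array, and 6.59% of all genes did so. Ccne2 lay lower on all 3, as did 6.83% of all genes. The higher genes span spindle checkpoint, motor, helicase, clamp and nucleotide supply, and also include Cdkn1a, an inhibitor of the cycle.

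Array 1 of hypoxia with SU5416 decided much of this. Without it the median difference was 0.17, 24 of the 35 genes were higher, and 3 rather than 11 had an unadjusted p under 0.05. That count was 7 without normoxia array 4, 5 without both normoxia arrays 1 and 2, and 2 once the beta-actin gap was a covariate, with medians of 0.29, 0.21 and 0.24. Over the 22 genes left when dim probe sets were dropped, the median was 0.19 and 17 were higher.

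Set against hypoxia alone, the genes again leaned higher in hypoxia with SU5416. 28 of the 35 were higher (80%), against 49% of all genes, with a median difference of 0.22 against -0.00 for all genes. None passed the adjusted p in limma (0.0352% of all genes did), and the smallest adjusted p was 0.284, for Bub1b. 5 were higher at an unadjusted p under 0.05 and 0 lower, where 3.67% and 3.63% of all genes were, and 2 (Aurka and Bub1b, the last again under background) also passed 1.4-fold, where 3.56% of all genes passed both in either direction. 8 lay higher on every array of hypoxia with SU5416 (6.07% of all genes did), namely Mad2l1, Bub1b, Kif11, Aurka, Mcm3, Mcm5, Pcna and Tk1. Ccnd1 and Cdkn1b lay lower on every one (6.53% of all genes). Their dimmer probe sets did not, as that of Cdkn1b lay higher on every one and those of Ccnd1 overlapped. Without array 1 of hypoxia with SU5416 the median was 0.12 and 2 genes were under the unadjusted threshold. Without array 3 of that group 8 were, and without the dim probe sets the median was 0.13. This comparison uses the same 3 arrays of hypoxia with SU5416 as the one with normoxia, so the 2 are not independent.

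Set against normoxia, the count of higher genes in hypoxia alone depended on the scaling of the arrays, as did the share of all probe sets. 20 of the 35 were higher on the deposited scale (57.1%), against 48.8% of all genes and 42.4% of all probe sets. The median difference was 0.05, against -0.01 for all genes and -0.04 for all probe sets. After quantile normalization 24 were higher (68.6%, median 0.07), where 50.6% of all probe sets were (median 0.00). With arrays centred on their median 26 were (74.3%, median 0.14), where 57% of all probe sets were (median 0.05). None passed the adjusted p in limma, as was so for all genes (0%), and the smallest adjusted p by brightest probe set was 0.384, for Cdk4. At an unadjusted p under 0.05, Cdk4, Kif20a and Cdkn1b were higher and Ccne2 was lower, where 4.3% and 5.29% of all genes were. Of these, Kif20a also passed 1.4-fold, where 4.07% of all genes passed both in either direction. Arrays did not overlap for Cdk4 and Cdkn1b, both higher (2.93% of all genes were higher without overlap and 3% lower). The sign of the median depended on single arrays: it was -0.02 without hypoxia array 2, -0.02 without normoxia arrays 1 and 2, and 0.13 without normoxia array 3.

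**Figure D2:**
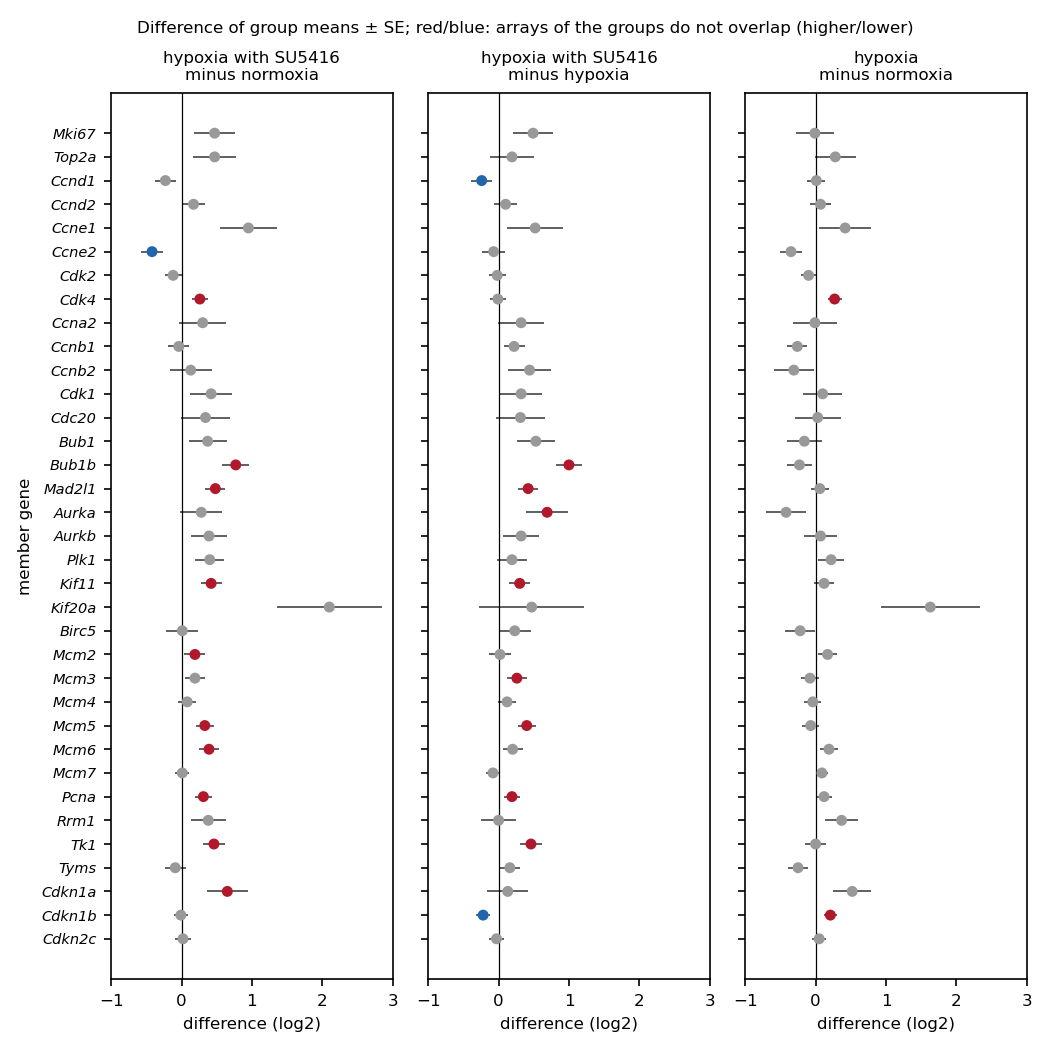
Differences of group means (log2, horizontal) with their standard errors for the 35 genes (vertical) in the 3 comparisons, with red and blue points for genes whose arrays lie apart, higher and lower. Points gather right of 0 in both comparisons of hypoxia with SU5416, with medians of 0.31 and 0.22, and around 0 for hypoxia against normoxia, with a median of 0.05.

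The promoters of these genes were read for the motifs through which replication and mitotic genes are known to be controlled. RefSeq promoters of the rat assembly GRCr8, 250 bases before to 50 after the annotated start, were at hand for 29 of the 35 genes. They were searched on both strands for the CHR core TTTGAA, for the CCAAT box bound by NF-Y, and for E2F sites, written as TTCCCGC, as TTCGCGC, as TTGCCGC or as TTGGCGC. The CHR core was in 9 of 14 mitotic genes (64.3%), in 1 of 12 G1 and replication genes, and in 18.3% of 33469 promoters. An E2F site was in 8 of 12 G1 and replication genes (66.7%), in 3 of 14 mitotic genes, and in 9.52% of all promoters. CCAAT was in 10 of 14 and 7 of 12, against 37.5% of all promoters. Of the 3 Cdk inhibitors, 2 held an E2F site (Cdkn1b and Cdkn2c), 1 held CCAAT and none held the CHR core. A match is a run of letters, not a measured site.

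Printed below are the promoters of the 6 genes of smallest unadjusted p, between hypoxia with SU5416 and normoxia, that hold any of these motifs. Bub1b lies at chr3:126016817-126017116 on the plus strand and Mad2l1 at chr4:97236259-97236558 on the plus strand, each with 1 CHR core. Mcm6, at chr13:42404303-42404602 on the minus strand, holds 2 CCAAT boxes and 5 E2F sites, which overlap in 2 pairs on opposite strands. Kif11, at chr1:244536617-244536916 on the plus strand, and Pcna, at chr3:139955771-139956070 on the minus strand, each have 1 CCAAT box, and Kif20a, at chr18:26504172-26504471 on the plus strand, has 3. Each is printed 5′ to 3′ in the gene's direction, with the motifs in capitals (in either orientation, so that ATTGG is a CCAAT box on the other strand).
Bub1b: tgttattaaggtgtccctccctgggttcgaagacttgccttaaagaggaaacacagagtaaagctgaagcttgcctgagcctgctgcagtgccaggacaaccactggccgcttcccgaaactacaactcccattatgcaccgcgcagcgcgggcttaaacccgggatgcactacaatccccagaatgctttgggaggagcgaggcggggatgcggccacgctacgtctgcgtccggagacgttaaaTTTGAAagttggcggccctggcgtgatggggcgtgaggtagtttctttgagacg
Mad2l1: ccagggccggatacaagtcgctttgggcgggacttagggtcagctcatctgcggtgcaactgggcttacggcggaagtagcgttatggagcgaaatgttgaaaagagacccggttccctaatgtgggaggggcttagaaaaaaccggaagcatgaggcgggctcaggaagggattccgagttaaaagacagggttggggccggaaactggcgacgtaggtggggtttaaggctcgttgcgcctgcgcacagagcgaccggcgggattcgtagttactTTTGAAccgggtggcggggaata
Mcm6: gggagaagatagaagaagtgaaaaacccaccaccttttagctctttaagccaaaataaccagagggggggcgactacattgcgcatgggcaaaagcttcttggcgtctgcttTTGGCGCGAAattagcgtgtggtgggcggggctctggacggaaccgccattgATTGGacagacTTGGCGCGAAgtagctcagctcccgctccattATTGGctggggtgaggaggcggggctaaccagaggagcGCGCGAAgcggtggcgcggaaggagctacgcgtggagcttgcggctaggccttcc
Kif11: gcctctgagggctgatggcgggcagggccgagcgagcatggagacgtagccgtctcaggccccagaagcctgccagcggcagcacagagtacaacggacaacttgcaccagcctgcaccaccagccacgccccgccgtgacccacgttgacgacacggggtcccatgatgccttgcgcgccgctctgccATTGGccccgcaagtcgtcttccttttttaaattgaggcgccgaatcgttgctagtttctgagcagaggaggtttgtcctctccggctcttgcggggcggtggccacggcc
Kif20a: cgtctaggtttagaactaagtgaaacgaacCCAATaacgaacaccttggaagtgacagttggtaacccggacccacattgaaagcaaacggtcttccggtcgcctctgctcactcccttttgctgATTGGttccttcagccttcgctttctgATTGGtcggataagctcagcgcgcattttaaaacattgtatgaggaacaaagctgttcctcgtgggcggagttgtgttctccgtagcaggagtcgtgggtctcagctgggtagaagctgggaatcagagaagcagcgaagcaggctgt
Pcna: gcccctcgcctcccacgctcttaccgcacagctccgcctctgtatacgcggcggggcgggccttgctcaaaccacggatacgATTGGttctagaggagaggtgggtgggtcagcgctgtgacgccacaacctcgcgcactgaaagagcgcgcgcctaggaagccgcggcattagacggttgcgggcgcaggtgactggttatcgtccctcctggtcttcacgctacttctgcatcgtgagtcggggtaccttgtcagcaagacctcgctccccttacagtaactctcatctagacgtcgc

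Among the G1 cyclins and kinases, which decide on entry into the cycle, differences went both ways, with 3 of 6 higher in hypoxia with SU5416 than in normoxia and a median of 0.03. Cdk4, the partner of cyclin D, had 10.75, 10.69 and 10.68 log2 in hypoxia with SU5416 and 10.69, 10.75, 10.59 and 10.84 in hypoxia, against 10.25, 10.55, 10.49 and 10.51 in normoxia. Every array of both hypoxic groups lay above every normoxia array. The difference from normoxia was 0.26 ± 0.11 (SE, adjusted p = 0.37 in limma) with SU5416 and 0.27 ± 0.10 (adjusted p = 0.384) for hypoxia alone, while the 2 hypoxic groups differed by -0.01 ± 0.11.

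Cyclin E2 went the other way from Cdk4. Ccne2 had 7.97, 8.01 and 7.73 in hypoxia with SU5416 and 7.91, 7.98, 7.85 and 8.14 in hypoxia, against 8.54, 8.61, 8.11 and 8.02 in normoxia. Its highest values were those of normoxia arrays 1 and 2, which also had the widest beta-actin gaps. The difference from normoxia was -0.42 ± 0.16 with SU5416 (adjusted p = 0.344) and -0.35 ± 0.15 for hypoxia (adjusted p = 0.445), and without those 2 arrays -0.17 ± 0.13 and -0.10 ± 0.13. A dimmer Ccne2 probe set gave 0.36 ± 0.37 for hypoxia with SU5416 against normoxia, with 1 normoxia array under background.

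Cyclin E1, the other partner of Cdk2, was near background. Ccne1 had 6.83, 5.86 and 6.55 in hypoxia with SU5416 and 5.93, 6.44, 6.00 and 5.20 in hypoxia, against 4.81, 5.18, 6.37 and 5.52 in normoxia, where 3 of the 4 arrays lay under the background level. The difference from normoxia with SU5416, 0.95 ± 0.40 (adjusted p = 0.374), shrank to 0.53 when values were raised to background. Ccnd1 and Ccnd2, the D cyclins that answer to growth signals, differed from normoxia by -0.23 ± 0.15 and 0.17 ± 0.16, and Cdk2 by -0.12 ± 0.12. Ccnd1 had 12.10, 12.08 and 12.11 in hypoxia with SU5416, against 12.14, 12.34, 12.39 and 12.47 in hypoxia, a difference of -0.24 ± 0.15 (adjusted p = 0.787) with no overlap. Its other probe sets gave -0.05 and 0.11 there.

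The 2 general markers of proliferation overlapped between the groups. Mki67, which encodes the Ki-67 antigen of cycling cells, had 8.37, 8.20 and 7.75 in hypoxia with SU5416 and 8.03, 7.90, 7.66 and 6.89 in hypoxia, against 7.48, 7.46, 8.11 and 7.49 in normoxia. Top2a, the topoisomerase that untangles replicated DNA, had 9.37, 9.21 and 8.07 in hypoxia with SU5416 and 8.78, 8.58, 8.87 and 8.54 in hypoxia, against 8.15, 8.12, 8.97 and 8.43 in normoxia. Both were higher on arrays 1 and 2 of hypoxia with SU5416 than on array 3, where Top2a was at its lowest of the 11 arrays, and both were highest of their group on normoxia array 3. Each differed from normoxia by 0.47 with SU5416, with standard errors of 0.29 and 0.31 and adjusted p-values of 0.533 and 0.572. These differences were 0.34 ± 0.33 for Mki67 and 0.22 ± 0.33 for Top2a without array 1 of hypoxia with SU5416. A dimmer Top2a probe set differed from normoxia by 0.28 ± 0.17 with all arrays. On it array 3 with SU5416 was not the lowest, at 7.57 against 7.25 on normoxia array 4. Its highest normoxia array was array 1, at 7.62, against 7.60 on array 3.

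Among the S and M phase cyclins and Cdk1, the engine of mitosis, 3 of 4 were higher in hypoxia with SU5416 than in normoxia (median 0.22) and 4 of 4 than in hypoxia (median 0.32), with no unadjusted p under 0.05. Cdk1 had 8.73, 8.36 and 7.84 in hypoxia with SU5416 and 8.23, 8.36, 7.87 and 7.52 in hypoxia, against 7.40, 7.87, 8.53 and 7.77 in normoxia. The groups overlapped throughout, and the difference from normoxia was 0.42 ± 0.30. Ccna2, the S phase cyclin, differed from normoxia by 0.30 ± 0.33, and the B cyclins Ccnb2 by 0.13 ± 0.30 and Ccnb1 by -0.04 ± 0.15. The dimmer Ccnb1 probe set differed by 0.83 ± 0.45, or by 0.68 with values raised to background. Without array 1 of hypoxia with SU5416 the median of the 4 was -0.08 from normoxia, with 1 higher, and 0.13 from hypoxia, with 3 higher.

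Of the spindle checkpoint, which holds mitosis until every chromosome is attached, 3 of the 4 genes were above background, and these 3 had higher means in hypoxia with SU5416 than in normoxia (median 0.37) and than in hypoxia (median 0.42). The medians were 0.10 and 0.26 without array 1 of hypoxia with SU5416, and without normoxia arrays 1 and 2, or with the beta-actin gap as a covariate, 2 of the 3 were higher than in normoxia. Mad2l1, which keeps the anaphase-promoting complex shut, had 7.92, 7.95 and 7.78 in hypoxia with SU5416 and 7.30, 7.63, 7.52 and 7.40 in hypoxia, against 7.38, 7.26, 7.71 and 7.25 in normoxia. Its lowest array with SU5416 lay above the highest of both other groups. The differences were 0.48 ± 0.14 from normoxia (adjusted p = 0.213 in limma) and 0.42 ± 0.14 from hypoxia (adjusted p = 0.531), whereas hypoxia and normoxia differed by 0.06 ± 0.13. Without array 1 of hypoxia with SU5416 the first was 0.46 ± 0.16, and without normoxia arrays 1 and 2 it was 0.40 ± 0.17. Its 2 dimmer probe sets overlapped normoxia, with differences of 0.31 ± 0.19 and 0.86 ± 0.45, the second with 2 normoxia arrays under background and 0.59 when raised to it.

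By brightest probe set, Bub1b, the pseudokinase BubR1 of the same complex, had the smallest p of the 35 genes in both comparisons with SU5416. It was under background on all 11 arrays, so no fold is given. Its signals were 4.80, 5.54 and 5.53 in hypoxia with SU5416 and 4.29, 4.41, 4.48 and 3.99 in hypoxia, against 4.67, 4.43, 4.53 and 4.45 in normoxia (adjusted p = 0.284 against hypoxia and 0.171 against normoxia). The kinase Bub1 had 8.38, 7.84 and 7.30 in hypoxia with SU5416 and 7.32, 7.74, 7.02 and 7.16 in hypoxia, against 7.21, 7.56, 7.83 and 7.27 in normoxia, which overlap. Cdc20, the activator that the checkpoint restrains, differed from normoxia by 0.34 ± 0.35, and its 5 probe sets gave 0.02 to 1.16, the highest with 3 normoxia arrays under background and 0.69 when raised to it. Without Bub1b, 28 of the 34 remaining genes were higher than in normoxia, with the median still 0.31.

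All 6 mitotic kinases, motors and survivin were higher in hypoxia with SU5416 than in normoxia (median 0.40) and than in hypoxia (median 0.31). Without array 1 of hypoxia with SU5416 the medians were 0.27, with 5 of 6 higher, and 0.19, and the count at an unadjusted p under 0.05 against normoxia was 0 rather than 2. The beta-actin covariate, and leaving out normoxia arrays 1 and 2, each likewise left 5 of 6 higher than in normoxia. Kif11, the motor that pushes the spindle poles apart, had 8.34, 8.09 and 8.05 in hypoxia with SU5416 and 7.99, 7.95, 7.61 and 7.88 in hypoxia, against 7.66, 7.55, 8.04 and 7.71 in normoxia. No array overlapped in either comparison, though by a narrow margin over normoxia array 3. The difference was 0.42 ± 0.15 from normoxia (adjusted p = 0.31) and 0.30 ± 0.15 from hypoxia (adjusted p = 0.72).

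Kif20a, a motor of cytokinesis, had the widest difference of the 35 and the widest spread. It had 8.03, 7.81 and 7.49 in hypoxia with SU5416 and 7.16, 7.26, 7.72 and 7.06 in hypoxia, against 3.55, 7.55, 6.56 and 5.02 in normoxia. The 7 hypoxic arrays lay close together, and normoxia array 2 lay among them while arrays 1 and 4 were under background. The differences from normoxia were 2.10 ± 0.75 with SU5416 (adjusted p = 0.31) and 1.63 ± 0.70 for hypoxia alone (adjusted p = 0.443), or 1.39 and 0.91 with values raised to background. Without normoxia arrays 1 and 2 they were 1.99 ± 0.42 and 1.51 ± 0.40, each with an adjusted p of 0.131. That fit drops array 2, the normoxia array among the hypoxic ones, and its values were not raised to background.

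The kinases of mitosis were less clear. Aurka, which matures the centrosomes, had 6.94, 6.67 and 6.56 in hypoxia with SU5416 and 6.55, 5.65, 6.46 and 5.47 in hypoxia, against 5.94, 6.33, 6.85 and 6.65 in normoxia. It lay just above all hypoxia arrays, 2 of them under background, with a difference of 0.69 ± 0.30 (adjusted p = 0.652), but overlapped normoxia. Plk1 and Aurkb, which drive mitotic entry and correct attachments, differed from normoxia by 0.40 ± 0.21 and 0.39 ± 0.26, and Birc5, the survivin that works with Aurkb, by 0.01 ± 0.23.

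**Figure D3:**
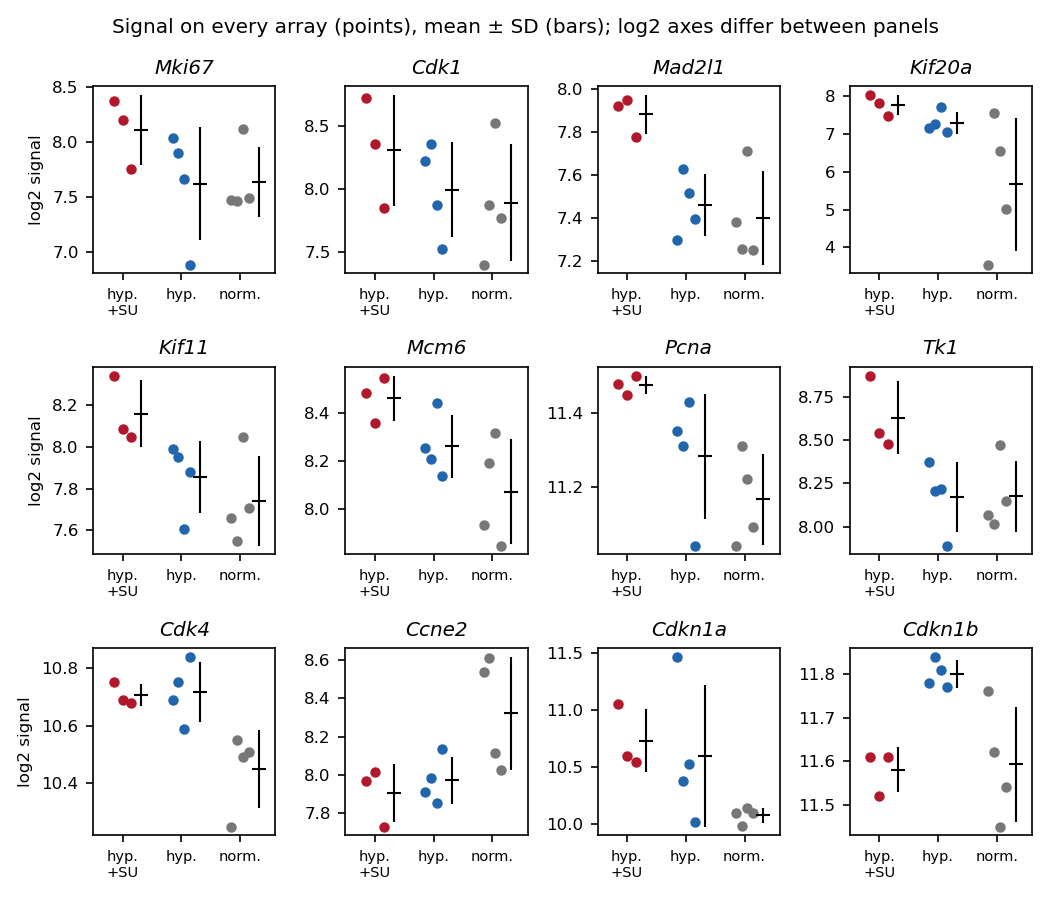
Log2 signal of 12 of the genes on every array (points, grouped from left to right as hypoxia with SU5416, hypoxia and normoxia) with the mean and standard deviation beside each group, each panel on its own log2 axis. Mad2l1, Kif11, Pcna and Tk1 sit apart from both other groups with SU5416, Tk1 only just from normoxia array 3. Cdk4 separates both hypoxic groups from normoxia, and normoxia array 3 is the highest normoxia array for Mki67, Cdk1, Mad2l1, Kif11, Mcm6 and Tk1.

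All 6 subunits of the replicative helicase, the ring that opens DNA at the fork, were higher in hypoxia with SU5416 than in normoxia, though by little (median 0.19). Without array 1 of hypoxia with SU5416, or with the beta-actin covariate, 5 of 6 were (medians 0.14 and 0.15). Mcm6 had 8.48, 8.36 and 8.55 in hypoxia with SU5416 and 8.26, 8.21, 8.45 and 8.14 in hypoxia, against 7.93, 8.19, 8.32 and 7.84 in normoxia. Hypoxia alone lay between, and the differences were 0.39 ± 0.14 from normoxia (adjusted p = 0.302) and 0.20 ± 0.14 from hypoxia. Mcm5 had 9.20, 8.84 and 8.81 in hypoxia with SU5416 and 8.65, 8.69, 8.49 and 8.37 in hypoxia, against 8.65, 8.64, 8.69 and 8.51 in normoxia. It was apart from both groups, by 0.33 ± 0.13 from normoxia (adjusted p = 0.347) and 0.40 ± 0.13 from hypoxia (adjusted p = 0.523), or by 0.20 ± 0.13 from normoxia without array 1.

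The other 4 subunits differed less. Mcm2 and Mcm3 were each 0.19 above normoxia (SE 0.15 and 0.14), Mcm4 was 0.08 ± 0.13 above it and Mcm7 0.01 ± 0.10. Mcm7 had 10.25, 10.19 and 10.22 in hypoxia with SU5416 and 10.26, 10.21, 10.40 and 10.34 in hypoxia, against 10.11, 10.32, 10.16 and 10.26 in normoxia. The 6 subunits assemble in equal numbers, and their differences from normoxia ran from 0.01 to 0.39. Whether the subunits differ from each other was not tested.

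Of the clamp and the enzymes of nucleotide supply, Pcna and the brightest probe set of Tk1 stood apart. Pcna, the ring that tethers DNA polymerases, had 11.48, 11.45 and 11.50 in hypoxia with SU5416 and 11.35, 11.31, 11.43 and 11.04 in hypoxia, against 11.04, 11.31, 11.22 and 11.09 in normoxia. The 3 arrays with SU5416 were within 0.05 of each other and above all 8 others, by 0.31 ± 0.12 from normoxia (adjusted p = 0.333) and 0.19 ± 0.12 from hypoxia (adjusted p = 0.787). Tk1, the salvage enzyme for thymidine, had 8.87, 8.54 and 8.47 in hypoxia with SU5416 and 8.37, 8.21, 8.22 and 7.89 in hypoxia, against 8.06, 8.01, 8.47 and 8.15 in normoxia. It was 0.46 ± 0.16 above both other groups (adjusted p = 0.307 against normoxia and 0.57 against hypoxia), but its lowest array with SU5416 only just passed normoxia array 3. Its 2 dimmer probe sets overlapped both groups, at 0.44 ± 0.24 and 0.21 ± 0.54 from normoxia and 0.21 ± 0.24 and 0.19 ± 0.54 from hypoxia. Rrm1, the large subunit of ribonucleotide reductase, was 0.38 ± 0.25 above normoxia, level with hypoxia alone, and Tyms, which makes thymidylate, differed from normoxia by -0.09 ± 0.15.

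Among the inhibitors of cyclin-dependent kinases, Cdkn1a, the p53 target p21, had the widest differences from normoxia. It had 11.05, 10.60 and 10.55 in hypoxia with SU5416 and 11.47, 10.38, 10.53 and 10.02 in hypoxia, against 10.10, 9.99, 10.14 and 10.10 in normoxia. The normoxia arrays lay within 0.15 of each other, and all but 1 of the 7 hypoxic arrays were above them. The differences were 0.65 ± 0.29 with SU5416 (adjusted p = 0.396) and 0.52 ± 0.27 for hypoxia alone (adjusted p = 0.509), and the 2 hypoxic groups differed by 0.13 ± 0.29. A dimmer probe set lay above all normoxia arrays in both groups, by 1.51 ± 0.82 with SU5416 and 1.65 ± 0.76 for hypoxia alone, or by 0.89 and 1.03 with its 1 normoxia array under background raised to that level.

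For Cdkn1b, the inhibitor p27, the 2 probe sets gave different answers. The brighter had 11.61, 11.52 and 11.61 in hypoxia with SU5416 and 11.78, 11.84, 11.81 and 11.77 in hypoxia, against 11.76, 11.62, 11.45 and 11.54 in normoxia. With it, hypoxia with SU5416 was -0.22 ± 0.10 from hypoxia (adjusted p = 0.668) and -0.01 ± 0.10 from normoxia. The dimmer was higher with SU5416 than in both, by 0.45 ± 0.17 (adjusted p = 0.611) and 0.75 ± 0.17 (adjusted p = 0.144). Both were higher in hypoxia than in normoxia, by 0.21 ± 0.09 (adjusted p = 0.453) for the brighter and 0.30 ± 0.16 for the dimmer. No direction is given for Cdkn1b with SU5416. Cdkn2c, the Cdk4 and Cdk6 inhibitor p18, differed by 0.02 ± 0.11 from normoxia.

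Array by array, the mean deviation of the 35 genes from their own means was 0.39, 0.19 and 0.02 in hypoxia with SU5416 and 0.02, 0.05, -0.02 and -0.21 in hypoxia, against -0.26, -0.10, 0.12 and -0.20 in normoxia. The group means were 0.20 ± 0.18, -0.04 ± 0.12 and -0.11 ± 0.17 (SD, n = 3, 4 and 4). Array 3 with SU5416 lay under normoxia array 3, so the groups overlapped. The spread was not the same in every role. The S and M phase cyclins with Cdk1 ran through 0.65, 0.21 and -0.29 on the 3 arrays with SU5416, while the helicase subunits had 0.23, 0.04 and 0.11 and the clamp and nucleotide enzymes 0.29, 0.14 and 0.08. By these means, the clamp and nucleotide enzymes had their 3 SU5416 arrays above every normoxia array (lowest 0.08, against a highest of 0.06). They did so by the median of their genes too (0.19 against 0.05). Against hypoxia alone they overlapped by the mean (0.16 on hypoxia array 3) but not by the median. The Cdk inhibitors also had their 3 SU5416 arrays above every normoxia array. Their lowest mean was -0.03, against a highest of -0.11 in normoxia, and their lowest median -0.05, against -0.07. The mitotic kinases and motors lay apart by the mean (0.11 against 0.09) but not by the median. That was 0.03 on array 3 with SU5416 and 0.08 on normoxia array 3. Their mean includes Kif20a, which was under background on normoxia arrays 1 and 4.

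**Figure D4:**
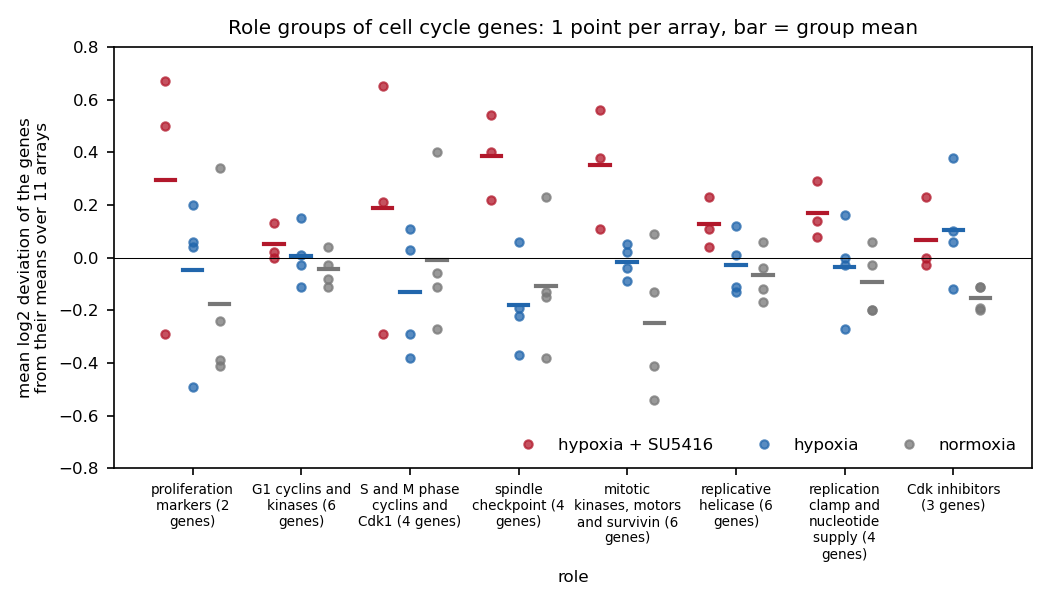
Mean log2 deviation of each role's genes from their means over 11 arrays (vertical) by role (horizontal), with 1 point per array, a bar at each group's mean, and the groups from left to right as hypoxia with SU5416, hypoxia and normoxia. The widest spread with SU5416 is in the proliferation markers and the S and M phase cyclins, from 0.67 to -0.29 and from 0.65 to -0.29, and the G1 cyclins and kinases lie between 0.00 and 0.13.

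**Figure D5:**
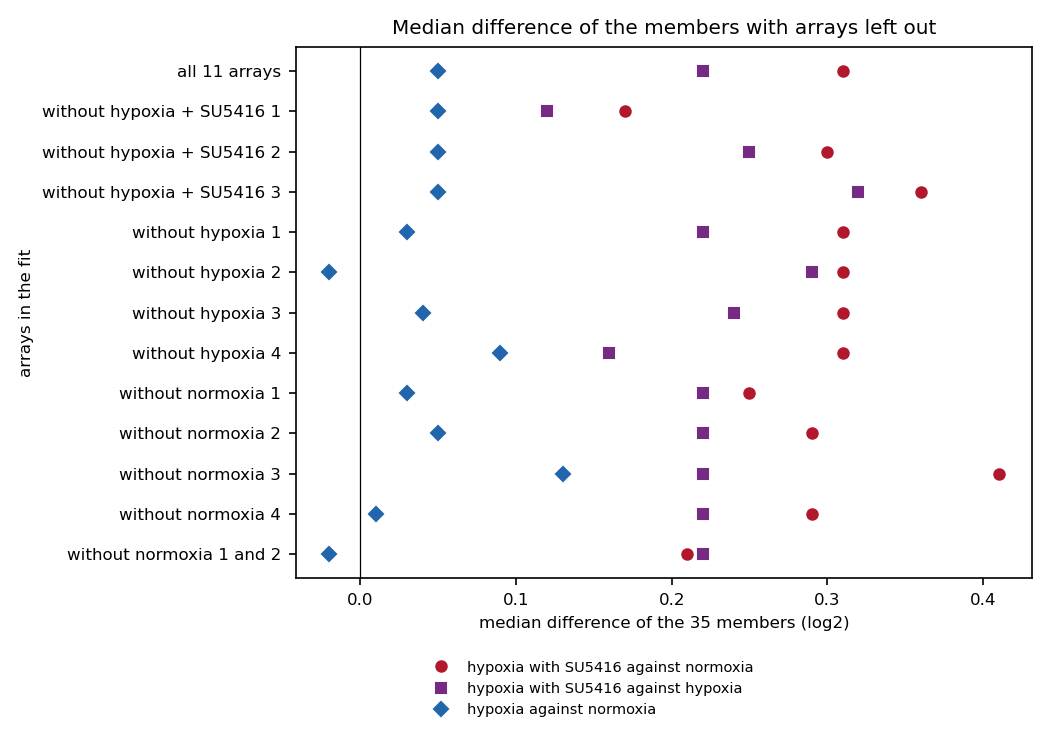
Median difference of the 35 genes (log2, horizontal) in the 3 comparisons with all 11 arrays, with each array left out in turn, and with normoxia arrays 1 and 2 left out (vertical). The median of hypoxia with SU5416 against normoxia stays above 0, between 0.17 and 0.41, as does that against hypoxia, between 0.12 and 0.32, while hypoxia against normoxia runs from -0.02 to 0.13.

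Further genes of the same processes were taken from 3 lists. Of 39 genes of replication and S phase, 34 were measured and 26 were higher in hypoxia with SU5416 than in normoxia (median 0.12), where 47.4% of all genes were. 2 of the 34 had an unadjusted p under 0.05, near the 6.02% of all genes that did in that direction, and none passed by adjusted p. The 2 were Prim1, a primase subunit, at 0.33 ± 0.13 (adjusted p = 0.345) and Pold2, of DNA polymerase delta, at 0.27 ± 0.10 (adjusted p = 0.327). Prim1 had 9.36, 9.36 and 9.39 in hypoxia with SU5416, against 8.80, 8.88, 9.30 and 9.18 in normoxia, with no overlap. Rpa3, of the single-strand binding protein, and Slbp, which binds histone messages, also lay apart, at 0.39 ± 0.18 and 0.37 ± 0.18. Slbp was 0.56 ± 0.16 above normoxia in hypoxia alone (adjusted p = 0.31), the smallest p of that list there, and the replication nuclease Fen1 was 0.28 ± 0.10 above it (adjusted p = 0.367). Gins3, of the GINS complex, was lower in hypoxia than in normoxia by -0.38 ± 0.13 and higher with SU5416 than in hypoxia by 0.46 ± 0.14 (adjusted p = 0.353 and 0.482). Chaf1a, a histone chaperone, was 0.57 ± 0.22 higher with SU5416 than in hypoxia (adjusted p = 0.62). It was near background, with a mean of 5.65 in hypoxia, under the level of 5.72. Its arrays with SU5416 had 5.97, 6.90 and 5.80, so array 2 carried most of the difference.

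Of 47 genes of mitosis and cytokinesis, 38 were measured and 24 were higher in hypoxia with SU5416 than in normoxia (median 0.09), 4 at an unadjusted p under 0.05, where 47.4% and 6.02% of all genes were. Kif23, the cytokinesis motor that works at the midzone, had 9.52, 9.46 and 8.87 in hypoxia with SU5416, against 8.42, 8.91, 8.60 and 8.52 in normoxia (0.67 ± 0.19, adjusted p = 0.199). Cks2, a Cdk subunit, was higher by 0.91 ± 0.28 (adjusted p = 0.253), Prc1, which bundles midzone microtubules, by 0.65 ± 0.28 (adjusted p = 0.388), and Smc2, of condensin, by 0.42 ± 0.15 (adjusted p = 0.318). Smc2 lay apart from every normoxia array, while Kif23, Cks2 and Prc1 overlapped normoxia. Against hypoxia alone, 29 of the 38 were higher with SU5416 (median 0.13), where 49% of all genes were, with Cks2 at 0.72 ± 0.28 and Cks1b at 0.41 ± 0.15 apart on every array. In hypoxia against normoxia 20 of the 38 were higher, where 48.8% of all genes were, and Smc2 was apart at 0.35 ± 0.14 (adjusted p = 0.418).

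Of 31 regulators of the cycle through Rb, E2F and p53, 27 were measured and 11 were higher in hypoxia with SU5416 than in normoxia (median -0.05), where 47.4% of all genes were. At an unadjusted p under 0.05, 2 of the 27 were higher and 2 lower, close to the 6.02% and 6.7% of all genes. E2f8, a repressing E2F, had 6.89, 7.09 and 6.91 in hypoxia with SU5416, against 7.35, 7.35, 7.65 and 7.61 in normoxia, a difference of -0.52 ± 0.12 (adjusted p = 0.14). In hypoxia alone it had 7.08, 6.95, 7.13 and 6.90, a difference from normoxia of -0.47 ± 0.11 (adjusted p = 0.253). Both hypoxic groups thus lay under every normoxia array. E2f2 differed from normoxia by -0.42 ± 0.17 with SU5416, and E2f1 from hypoxia by -0.64 ± 0.24. The stress genes Gadd45a and Gadd45g were higher than in normoxia by 0.54 ± 0.19 and 0.55 ± 0.21 without overlap (adjusted p = 0.31 and 0.329).

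Marker genes of several cell types also had different mean levels in the groups, and their part in the differences above was not tested. None of these markers passed the adjusted p in limma in any comparison. The smallest for hypoxia with SU5416 against normoxia was 0.0555, for a macrophage and monocyte marker. Over all genes, 47.4% were higher in that comparison. Of smooth muscle, 8 of 8 markers were higher in hypoxia with SU5416 than in normoxia, and their summed linear signal was 18707 to 21254 with SU5416 and 11192 to 16793 in hypoxia, against 11388 to 14594 in normoxia. Of macrophages and monocytes, 5 of 8 were higher. The sums were 17500 to 20689, 13959 to 16101 and 15029 to 17715 in the same order. The mean of Itgam over all arrays was under background. All 9 markers of T and NK cells and all 6 of B and plasma cells were lower with SU5416 than in normoxia, the B cell sum being 2020 to 2246 and 2368 to 3491, against 3370 to 3782 in normoxia. The T and NK cell sum was 2582 to 3332 and 2757 to 3105, against 2940 to 4257. Of endothelial cells 6 of 9 were lower, with sums of 31783 to 34348 and 36139 to 38373, against 34906 to 41798. Red cell precursors, which divide fast, summed to 1375 to 1865 and 1023 to 2040, against 647 to 1619. With SU5416, 4 of 6 of these markers were higher than in normoxia. The precursor genes Epb42, Ahsp and Klf1 each had a mean over all arrays under background. Epithelial markers summed to 67030 to 71133 and 60583 to 70524, against 60507 to 85447, with 3 of 8 higher.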

How the data were processed

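Lung RNA was hybridised to Affymetrix rat arrays. The deposited values are log2 signals, summarised with RMA per the submitters' processing notes, which give no version; a linear mean of 500 on all 11 arrays, after trimming 2% at each end, is a pattern of scaling to a target, so the summarisation is uncertain. They were used as deposited. Of 31099 probe sets, 57 controls were set aside. Background was the 95th percentile of 27 Bacillus subtilis control probe sets.

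One linear model over the 11 arrays (limma 3.58.1, R 4.3.3, 8 residual degrees of freedom) gave the 3 comparisons, two-sided, with p-values adjusted by Benjamini-Hochberg over 31042 probe sets. The median standard error of a difference was 0.19 to 0.20 log2 over all probe sets, and it ran from 0.09 to 0.75 over the 35 genes. The procedure was tested on simulated data. SAM, which the study used, was not repeated. Promoters came from RefSeq (GRCr8). Figures were drawn with matplotlib 3.10.9 in Python 3.11.15, from tables made with pandas 2.3.3 on numpy 2.4.6.

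All 36 symbols were named, with up to 4 genes of smallest unadjusted p per comparison from each of 3 further lists. The genes, lists, tests and alternatives, among them the fit without normoxia arrays 1 and 2, were chosen with earlier results of these data known. The alternatives were quantile normalization, centring, leaving out dim probe sets, fitting 2 groups, trend and robust moderation, array weights, the beta-actin gap as covariate, the replicate number as a block, leaving out arrays, the mean of a gene's probe sets, and another threshold. Arrays of the sorafenib group were not analysed here.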

Additional observations from a re-analysis of the deposited data

Results flagged for a closer look

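In 4 of 70 sets of 4 arrays, 1 array lay far from the other 3 by Dixon's test, which chance gives in about 1 of 20. Hypoxia with SU5416, with 3 arrays, was not tested in this way. On normoxia array 3 Mki67 had 8.114 log2, where the rest of its group had 7.46 to 7.49. Cdkn2c had 9.564 there, where the rest had 9.28 to 9.31. Ccnb1 had 8.027 on hypoxia array 2, against 7.60 to 7.67 on the other hypoxia arrays. Tyms had 7.43 on hypoxia array 4, against 7.50 to 7.51 on the others, a small gap in a tight group.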

How the results depend on the processing

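No gene of the 35 passed the adjusted p in any of the 3 comparisons under the main setting or the 21 others that keep the threshold. At an unadjusted p under 0.05 with at least a 1.4-fold difference, 4 genes passed for hypoxia with SU5416 against normoxia, 2 for hypoxia with SU5416 against hypoxia and 1 for hypoxia against normoxia. With single arrays left out, the median difference was 0.17 to 0.41 against normoxia with SU5416 (0.17 without array 1 of hypoxia with SU5416), 0.12 to 0.32 against hypoxia, and -0.02 to 0.13 for hypoxia against normoxia. In the last comparison, 0 to 2 genes were higher at an unadjusted p under 0.05 without any 1 array, against 3 with all 11. With the replicate number as a block the medians were 0.28, 0.18 and 0.05, and 5 genes rather than 11 had that p for hypoxia with SU5416 against normoxia. The labels do not pair the arrays: same-numbered arrays correlated at -0.125 to 0.128, and 4 of 10 matched best with their own number. Of the single-gene values under other settings, 16 moved by more than the spread between arrays and 97 had the other sign, none of them for the 21 differences with an unadjusted p under 0.05. Against normoxia with SU5416, the mean of a gene's probe sets gave 0.40 for Ccnb1 (-0.04 with the brightest) and 0.37 for Cdkn1b (-0.01). Bub1b was under background on all 11 arrays, and Ccne1, Aurka and Kif20a on some.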
